A study of Mus musculus with 5 samples.

Results

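The transcripts described here were those that Gencode places in the gene types misc_RNA and ribozyme, which hold short structural RNAs such as 7SK, 7SL, the RNAs of RNase P and RNase MRP, and the Y RNAs. A transcript was included when it reached at least 1 CPM (a read count scaled to library size with TMM factors) in 1 or more of the 5 ribosome profiling libraries after removal of duplicate reads. The transcripts were therefore selected on their measured levels in these same libraries. Of the 135276 transcripts with deposited counts, 584 were of these types, 562 of them misc_RNA and 22 ribozyme. No read fell on 415 of the 584, a further 119 had reads but stayed below 1 CPM, and 50 were included, 43 misc_RNA and 7 ribozyme. Just outside the limit, Gm24379 reached 0.999 CPM with 10 reads in its highest library, and just inside it, Gm25780 reached 1.14 CPM with 13 reads.

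Mouse embryonic stem cells (mESCs) in self-renewal medium with LIF were profiled by standard RIBO-seq (3 libraries) and by AHARIBO RIBO-seq (2 libraries), and the comparison asks which RNAs were recovered with each. All cells received cycloheximide before lysis, which blocks elongation, and all lysates were digested with RNase I in a buffer containing sBlock, a compound that holds nascent chains on ribosomes. In standard RIBO-seq, ribosomes were pelleted through a sucrose cushion of 30%, whereas in AHARIBO RIBO-seq the azide-bearing methionine analogue AHA in nascent chains was linked to biotin and captured on magnetic beads, and no cushion is described. Gel fragments of 25 to 35 nt were sequenced in both. The labels name no genotype or sex, call every library untreated and give no AHA dose for these libraries. In the general AHARIBO workflow, AHA follows a period of methionine depletion, and the study describes the standard libraries as made from the input. Whether the cells of the standard libraries were depleted of methionine and given AHA is not stated for these libraries in the sources used here. Since each library was made by 1 method, the method and anything else that differed between the libraries cannot be told apart. The labels call the replicates biological, and the p-values measure the spread between these 5 libraries.

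These RNAs do not encode proteins. 7SK RNA binds HEXIM and LARP7 proteins in the nucleus and holds the elongation kinase P-TEFb inactive. 7SL RNA is the scaffold of the signal recognition particle, which binds ribosomes whose nascent chain carries a signal peptide and guides them to the endoplasmic reticulum. Its 5′ and 3′ ends fold together into the Alu domain, which reaches the ribosomal subunit interface, and its middle forms the S domain, which carries SRP54. RNase P RNA is the catalytic RNA that cleaves the leader from tRNA precursors, and the related RNase MRP RNA cleaves the precursor of rRNA in the nucleolus. Y RNAs are bound by Ro60 and La, vault RNA is part of the vault particle, and Terc is the template RNA of telomerase.

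Likeness to a named RNA was used to sort the 50 transcripts, since 37 carry only a Gm number. By blastn, 18 resembled 7SK, 11 7SL, 5 RNase P RNA and 8 Y RNA, while Rmrp (RNase MRP RNA), Vaultrc5 (vault RNA) and Terc stood alone. The remaining 5 resembled none of the named RNAs and are called unclassified. Family here means sequence likeness only, and 35 of the 50 belong to the families of 7SK, 7SL, RNase P and RNase MRP. Among all 584 transcripts, 161 resembled 7SK and 14 7SL, so that most 7SK-like genes in the annotation had no read or too few to be included, whereas 11 of the 14 7SL-like genes were included.

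The sequences below show how far a fragment of about 30 nt can be placed on a single gene, because reads in shared sequence cannot be told apart and the sources used here do not say how such reads were counted. They are taken from the Gencode M21 transcripts (GRCm38) and written 5′ to 3′ as DNA. For Rn7sk (chr9:78175303-78175633, minus strand, nucleotides 1 to 300 of 331), Rpph1 (chr14:50807449-50807767, minus strand, nucleotides 1 to 300 of 319), its relative Rprl3 (chr8:3803069-3803358, minus strand), Rny1 (chr6:47788069-47788180, minus strand) and Rny3 (chr6:47781624-47781725, plus strand), capitals mark bases that lie in no 30-nt window shared with another gene. Rmrp (chr4:43492788-43493058, minus strand) has no capitals, since all of its windows also occur in a lincRNA record of the same name.
Rn7sk: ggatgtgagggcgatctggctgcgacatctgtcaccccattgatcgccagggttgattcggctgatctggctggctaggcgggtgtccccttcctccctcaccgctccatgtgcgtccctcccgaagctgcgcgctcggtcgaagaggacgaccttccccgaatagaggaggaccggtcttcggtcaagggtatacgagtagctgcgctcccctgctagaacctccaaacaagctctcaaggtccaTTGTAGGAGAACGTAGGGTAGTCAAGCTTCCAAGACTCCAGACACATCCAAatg
Rpph1: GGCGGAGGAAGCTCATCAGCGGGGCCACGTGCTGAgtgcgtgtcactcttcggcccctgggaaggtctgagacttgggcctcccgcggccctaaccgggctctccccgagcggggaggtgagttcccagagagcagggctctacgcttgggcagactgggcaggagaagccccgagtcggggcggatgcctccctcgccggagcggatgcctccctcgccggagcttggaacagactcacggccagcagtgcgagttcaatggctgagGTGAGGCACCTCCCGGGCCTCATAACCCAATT
Rprl3: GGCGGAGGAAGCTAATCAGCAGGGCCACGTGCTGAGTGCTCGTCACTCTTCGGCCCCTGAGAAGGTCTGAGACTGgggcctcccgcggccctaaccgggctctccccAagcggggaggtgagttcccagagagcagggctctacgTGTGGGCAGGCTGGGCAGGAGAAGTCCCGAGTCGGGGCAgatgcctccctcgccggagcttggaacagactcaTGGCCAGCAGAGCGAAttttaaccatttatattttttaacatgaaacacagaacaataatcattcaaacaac
Rmrp: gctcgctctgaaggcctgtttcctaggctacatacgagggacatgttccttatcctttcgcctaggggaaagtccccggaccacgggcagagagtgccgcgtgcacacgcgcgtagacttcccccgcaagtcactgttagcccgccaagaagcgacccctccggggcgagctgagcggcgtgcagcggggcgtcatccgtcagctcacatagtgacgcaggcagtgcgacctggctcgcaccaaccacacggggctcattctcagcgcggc
Rny1: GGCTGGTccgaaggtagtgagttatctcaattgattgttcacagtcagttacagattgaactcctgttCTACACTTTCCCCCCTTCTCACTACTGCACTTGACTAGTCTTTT
Rny3: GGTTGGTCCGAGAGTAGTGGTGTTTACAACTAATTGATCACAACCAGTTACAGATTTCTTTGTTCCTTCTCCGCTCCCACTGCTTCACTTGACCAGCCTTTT

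Of the 50 transcripts, 38 shared at least 1 window of 30 nt with another gene in the same orientation and 12 shared none. Gm27286, among the 12, matched a lincRNA over all its windows in the reverse orientation. Rn7s1 and Rn7s2 are identical over their 300 nt, and Rn7s1 also shared 144 of its windows with Rn7s6. Rn7sk shared 73.5% of its windows with other genes, mainly with the 7SK-like genes Gm24447, Gm26315 and Gm26035. Rpph1 shared 70.3% with a 444-nt transcript of the protein-coding gene Ccnb1ip1, which overlaps it on the same strand. Transcripts of these groups are therefore not independent measurements. Rny3, Terc and Vaultrc5 shared none.

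Counts without duplicates, summed over all transcripts, were 6403651 to 9110668 in the standard libraries and 9972892 and 11150527 in the AHARIBO libraries. A read that matches several transcripts appears to be counted on each, so that these sums likely exceed the number of reads. For example, overlapping transcripts of the gene Pcbp2 had 1600, 1509 and 1342 counts in standard replicate 1. A floor of 3 counts amounts to 0.262 to 0.476 CPM. Stem cell genes dominated the marker lists in both methods, with a summed 1500 to 1606 CPM over 10 genes (Pou5f1 highest at 276 CPM) in standard RIBO-seq and 1349 to 1470 CPM in AHARIBO RIBO-seq. Early neuron markers summed to 46.7 to 54.5 CPM, and the fibroblast, endoderm and mesoderm lists stayed at or under 5.15 CPM, with 1 fibroblast marker at 0.

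More of the counts lay on the structural RNAs in AHARIBO RIBO-seq than in standard RIBO-seq. The shares are of the counts summed over all transcripts. The 50 transcripts together held 0.0513%, 0.0573% and 0.0584% of these counts in the 3 standard libraries, on average 0.0557% ± 0.00380 (SD, n = 3). In the AHARIBO libraries they held 0.0993% and 0.125%, on average 0.112% ± 0.0182 (SD, n = 2). Both AHARIBO libraries lay above all standard libraries, and the Wilson 95% intervals of the single shares were at most ± 0.00219 percentage points wide. With duplicate reads kept the shares were 0.152%, 0.181% and 0.174% against 0.739% and 1.19%. Rn7s1 and Rn7s2, identical in sequence, had the same counts in the standard libraries, so that each match appears to be counted on every transcript. Reads in shared sequence thus appear to enter these sums more than 1 time. Counting only Rn7s1, Rn7sk, Rpph1, Rmrp, Rny1, Rny3, Vaultrc5 and Terc, 1 transcript for each kind of RNA, gave 0.0232% ± 0.00167 (SD, n = 3) and 0.0421% ± 0.00655 (SD, n = 2). No test was applied to these sums, since the transcripts were chosen by level. Intervals and floors cover counting error only, since the sources used here mention no molecular identifiers. The intervals also take each count as a separate read, so that repeated counting makes them too narrow. As the libraries are bulk samples, fewer cells containing an RNA and less of the RNA per cell cannot be told apart.

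Transcript by transcript, all differences that passed the adjusted test had 1 direction. By edgeR's quasi-likelihood test, with Benjamini-Hochberg adjustment over all 66972 transcripts tested and a threshold of 0.05, 33 of the 50 transcripts were higher in the AHARIBO libraries, 0 were lower and 17 did not pass. Over all transcripts tested, 2.27% were higher and 2.24% lower by the same adjusted test. Without adjustment, 38 of the 50 were higher and 2 lower at a p under 0.05, and no share over all transcripts was computed for this limit. DESeq2 called 10 of the 50 and 267 transcripts in all, and gave 36 of the 50 no adjusted p. Without its filter on low means, a setting added after seeing the data, it called 22, all of them higher, and 223 transcripts in all. The median log2 fold change (AHARIBO over standard) was 1.17 over the 50 transcripts and 0.00 over all transcripts tested. Both AHARIBO libraries lay above all 3 standard libraries for 39 of the 50 transcripts, against 17.3% of all transcripts tested. With duplicates kept, 38 of the 50 were higher, against 1.87% of all transcripts, and the median was 2.11. All 33 transcripts that were higher with duplicates removed were also higher with duplicates kept, each with a larger fold change.

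A transcript that reached 1 CPM in the AHARIBO libraries alone was more likely to differ by the way it was selected. There were 7 such transcripts, of which 3 passed the test (Rprl1, Gm24943 and Gm23755) and 4 did not (Gm22198, Gm25780, Gm26124 and Gm26102). Gm24045, a Y RNA copy, was the 1 transcript that reached 1 CPM in the standard libraries alone, and it did not pass. Of the 42 transcripts at 1 CPM in a library of each method, 30 were higher. No share over all transcripts at 1 CPM in both methods was computed to set beside this count. The 42 also include Rn7s1 and Rn7s2 and 7SK copies with shared sequence, which are not independent. When every transcript with a read was tested without any limit on CPM, 36 of the 169 misc_RNA and ribozyme transcripts with a read were higher (21.3%), against 1.56% of all 106955 transcripts tested.

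**Figure D1:**
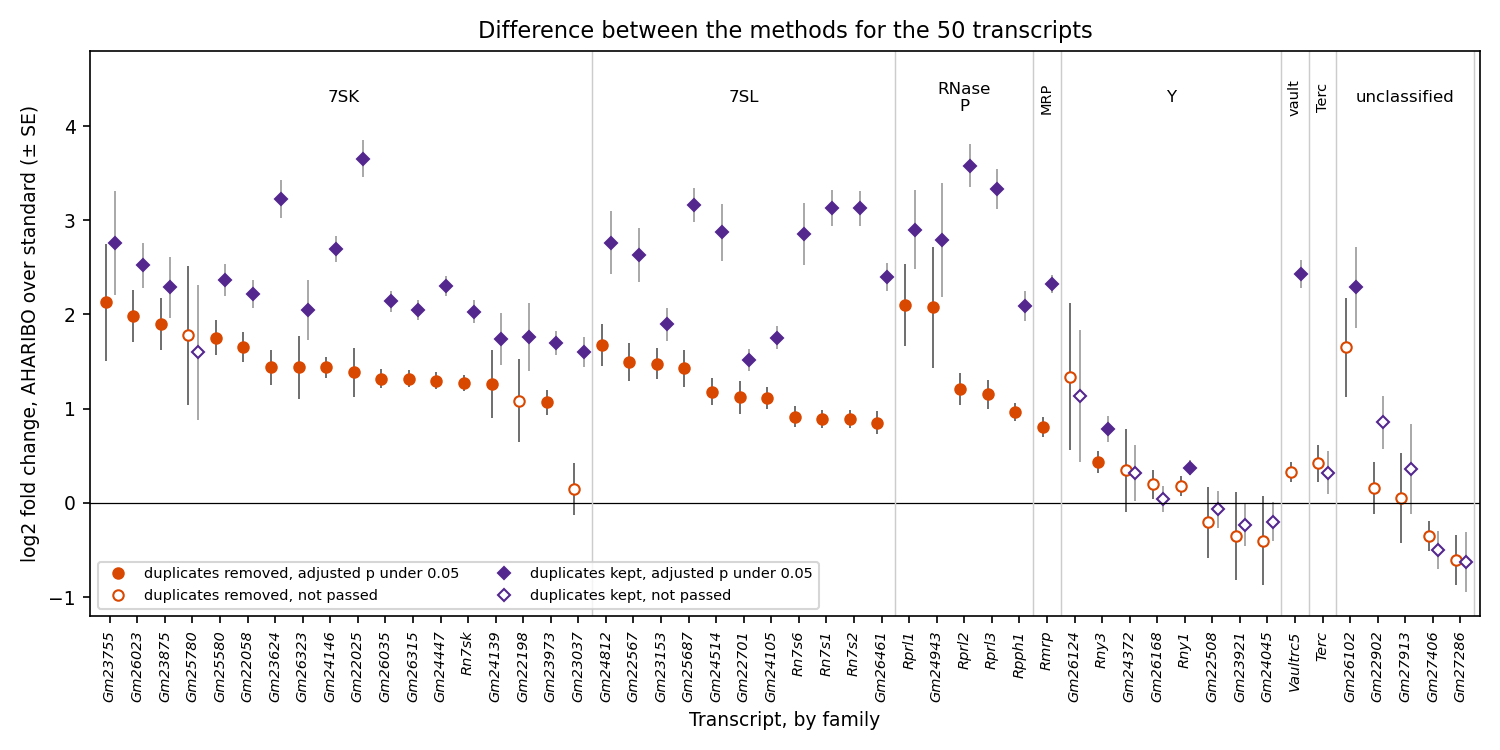
Differences between the methods for all 50 transcripts. The y axis gives the log2 fold change of AHARIBO over standard RIBO-seq with its approximate standard error, circles are counts without duplicates and diamonds counts with duplicates, and filled symbols passed an adjusted p of 0.05 in edgeR's test. The 7SK, 7SL, RNase P and RNase MRP transcripts lie above 0 in both versions, while 3 Y RNA copies and 2 unclassified transcripts lie below 0 without passing.

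7SK RNA was higher in the AHARIBO libraries. Rn7sk, the 7SK gene itself, had 33.2, 38.3 and 31.9 CPM in standard replicates 1, 2 and 3. The AHARIBO libraries had 82.0 and 85.3 CPM. The groups did not overlap and the spread within each was small, with means of 34.5 ± 3.40 (SD, n = 3) and 83.6 ± 2.33 CPM (SD, n = 2). Its log2 fold change was 1.27 with a standard error (SE) of 0.09, a 2.41-fold difference (adjusted p = 1.11e-16 by edgeR's quasi-likelihood test). With duplicates kept it had 35.5, 45.5 and 31.3 CPM against 159 and 147 CPM, a log2 fold change of 2.03 (adjusted p = 1.43e-07 by the same edgeR test).

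Most 7SK-like copies were higher as well. Of the 17 copies, 14 were higher in the AHARIBO libraries and 3 did not pass (Gm23037, Gm22198 and Gm25780). One of the 14, Gm23755, was included only through the AHARIBO libraries, so that its values are a description, as are those of Gm22198 and Gm25780. The log2 fold changes of the copies at 1 CPM in both methods ranged from 0.15 to 1.98. Identity to Rn7sk ranged from 74.3% to 100%. Gm24447, on chromosome 15, is identical to Rn7sk over the 71.3% of its length that aligned, and had a log2 fold change of 1.30. Gm26315 lies in an intron of Celf2 on the same strand, shares 70.5% of its windows, and had a log2 fold change of 1.32. Gm26035, on the X chromosome, also had 1.32. The copies that share the fewest windows varied more and had larger errors. Gm22025 shares 2.6% of its windows and had a log2 fold change of 1.39 (SE 0.26), Gm24139 shares 2.7% and had 1.26 (0.36), and Gm23755 shares 3.2% and had 2.13 (0.62). Of those that did not pass, Gm22198 shares 2.5% and had 1.09 (0.44), Gm25780 shares 2.7% and had 1.78 (0.74), and Gm23037 shares 6.4% and had 0.15 (0.28). The log2 fold change of Gm23755 was 1.71 without standard replicate 1 and 3.19 without standard replicate 2. The adjusted p of Gm24139 and Gm23755 lay nearest to the threshold among the copies under it, at 0.0316 and 0.0343 by edgeR's test, and neither passed without standard replicate 1 or 3 or without either AHARIBO library (0.0797 to 0.206). The other higher copies were Gm24146 (log2 fold change 1.44), Gm23973 (1.07), Gm22058 (1.66), Gm23624 (1.44), Gm25580 (1.75), Gm23875 (1.90), Gm26023 (1.98) and Gm26323 (1.44), the last of which did not pass without standard replicate 1 or AHARIBO replicate 2 (adjusted p = 0.0907 and 0.164 by edgeR's test).

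The call of some 7SK-like copies depended on duplicates. Gm23037, which lies within Zfp318, had 17, 20 and 18 reads without duplicates in the standard libraries and 28 and 26 in the AHARIBO libraries, and a log2 fold change of 0.15 that did not pass (adjusted p = 0.828 by edgeR's test). With duplicates kept it had 189, 286 and 128 reads against 1008 and 633, and a log2 fold change of 1.60 that passed (adjusted p = 5.11e-05 by the same edgeR test). Between 85.9% and 97.2% of its reads were removed as duplicates. Gm22198 had a log2 fold change of 1.09 that did not pass without duplicates (adjusted p = 0.152 by edgeR's test) and of 1.76 with them (adjusted p = 0.0189 by the same test), but it was included only through the AHARIBO libraries, in which it was higher, so that these values are a description. Gm22025 had 1.39 without duplicates and 3.66 with them, and passed edgeR's test in both versions. By DESeq2 without its filter on low means, Gm22025 and Gm26323 did not pass (adjusted p = 0.125 and 0.317).

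7SL RNA, the RNA of the signal recognition particle, had the highest level per length of these RNAs when duplicates were removed. Rn7s1 had 644, 733 and 586 reads in the standard libraries, which are 72.2, 80.9 and 93.0 CPM. In AHARIBO RIBO-seq it had 1431 and 1772 reads, which are 125 and 177 CPM. The groups did not overlap, although the AHARIBO libraries differed more from each other than the standard libraries did, with means of 82.0 ± 10.5 (SD, n = 3) and 151 ± 36.6 CPM (SD, n = 2). The log2 fold change of Rn7s1 was 0.89 with a standard error of 0.09, a 1.85-fold difference (adjusted p = 1.58e-09 by edgeR's quasi-likelihood test). Rn7s2, identical in sequence, had the same standard counts and a log2 fold change of 0.89, so that the pair is 1 measurement. Rn7s6, on chromosome 6, had 37.2, 40.0 and 51.7 CPM against 63.9 and 97.0 CPM and a log2 fold change of 0.92 (adjusted p = 2.49e-08 by the same edgeR test).

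Keeping the duplicates changed the values of Rn7s1 more than those of Rn7sk. Rn7s1 then had 238, 370 and 329 CPM in the standard libraries and 2001 and 3458 CPM in the AHARIBO libraries. Its log2 fold change was 3.13 (SE 0.19), an 8.74-fold difference (adjusted p = 1.64e-07 by edgeR's test). Rn7s6 had 103, 133 and 184 CPM against 481 and 1539 CPM.

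All 11 transcripts of the 7SL family were higher with and without duplicates, with log2 fold changes from 0.85 to 1.67 without duplicates and from 1.52 to 3.16 with them. The 8 copies other than Rn7s1, Rn7s2 and Rn7s6 had 79.4% to 96.5% identity to Rn7s2 and shared 0.0% to 33.0% of their windows with another gene. Gm22567 shared no window and had a log2 fold change of 1.50 (SE 0.20, adjusted p = 8.53e-07 by edgeR's test), and Gm24812, on the X chromosome within Il1rapl1, shared 2.4% and had 1.67 (0.22). The others were Gm26461 (0.85), Gm24105 (1.12), Gm22701 (1.12), Gm24514 (1.18), Gm25687 (1.43) and Gm23153 (1.48). Without AHARIBO replicate 2 the log2 fold changes of Rn7s6, Gm22567, Gm24514 and Gm24812 were 0.60, 0.96, 0.78 and 1.07, and all 4 still passed edgeR's test. By DESeq2 the adjusted p was 0.0249 for Rn7s1, which passed, and 0.0933 for Rn7s6, which did not. Without DESeq2's filter on low means these were 0.0709 and 0.280, and neither passed.

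The annotation holds short miRNA records nested in the 7SL genes, and their counts show where along the RNA the reads lay. Gm47287 covers nucleotides 143 to 212 of Rn7s1 (23.3% of its length, in the part that forms the S domain), and Gm47295 covers it from nucleotide 224 to the 3′ end (25.7% of its length). These records were chosen after their values were seen, so their shares are described and not tested. Without duplicates the 3′ stretch held 25.5%, 25.7% and 22.4% of the reads on Rn7s1 in the standard libraries and 26.8% and 23.2% in the AHARIBO libraries. The middle stretch held 13.0%, 9.28% and 15.5% against 17.2% and 18.6%. Of the 30-nt windows of Rn7s1, 15.1% lie wholly within the middle stretch and 17.7% within the 3′ stretch. Shares of reads were compared between libraries and not with even coverage.

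With duplicates kept, the 3′ stretch of Rn7s1 held 27.4%, 35.4% and 20.8% of the reads in the standard libraries. In AHARIBO RIBO-seq it held 63.1% and 44.7%. The AHARIBO shares lay above all standard shares, with means of 27.9% ± 7.31 (SD, n = 3) and 53.9% ± 13.1 (SD, n = 2). The middle stretch held 8.38%, 4.43% and 7.06% against 3.59% and 5.41%, and its groups overlapped. In reads, the 3′ stretch had 1044, 2126 and 785 in the standard libraries and 26866 and 27576 in the AHARIBO libraries. As records in the full test, both stretches were higher with duplicates kept, the 3′ stretch by a log2 fold change of 3.99 (SE 0.22) and the middle stretch by 2.71 (0.27), with adjusted p of 8.13e-08 and 4.82e-05 by edgeR's test. Without duplicates the order was the other way, 0.90 for the 3′ stretch and 1.42 for the middle stretch. Wilson 95% intervals of the shares were at most ± 3.37 percentage points without duplicates and ± 1.42 with them.

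**Figure D2:**
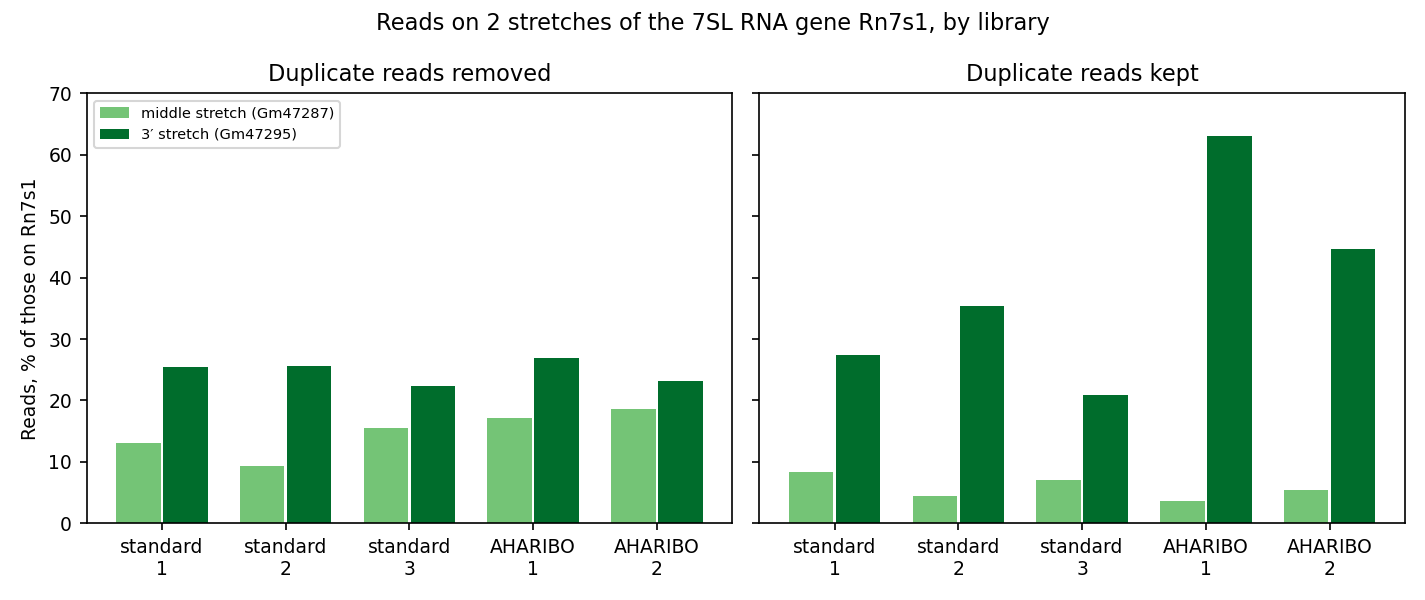
Reads on a middle stretch (nucleotides 143 to 212) and a 3′ stretch (from nucleotide 224) of Rn7s1 as a percentage of the reads on Rn7s1, for each library, with duplicates removed on the left and kept on the right. With duplicates kept the 3′ stretch holds 63.1% and 44.7% in the AHARIBO libraries, against 20.8% to 35.4% in the standard libraries.

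RNase P RNA was higher in the AHARIBO libraries. Rpph1, the gene of this RNA, had 29.2, 26.1 and 31.4 CPM in the standard libraries and 47.8 and 64.7 CPM in the AHARIBO libraries. The groups did not overlap, with means of 28.9 ± 2.70 (SD, n = 3) and 56.2 ± 12.0 CPM (SD, n = 2), and the log2 fold change was 0.96 with a standard error of 0.10 (adjusted p = 5.80e-10 by edgeR's quasi-likelihood test). With duplicates kept it had 160, 96.4 and 136 CPM against 481 and 631 CPM, a log2 fold change of 2.09 (adjusted p = 2.04e-06 by the same edgeR test). The Ccnb1ip1 transcript that overlaps Rpph1 (ENSMUST00000227614.1) had 172, 165 and 130 reads against 420 and 482 and a log2 fold change of 1.13. A longer coding transcript of Ccnb1ip1 (ENSMUST00000095932.4, 1509 nt) had 49, 70 and 53 reads against 104 and 77 and a log2 fold change of 0.25 that did not pass (adjusted p = 0.429 by edgeR's test). The difference thus passed on the Ccnb1ip1 transcript that shares the sequence of Rpph1 (adjusted p = 7.92e-12 by the same edgeR test) and not on the other.

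The RNase P-like genes Rprl3 and Rprl2 were also higher. Rprl3, which has 86.0% identity to Rpph1 and is printed above, had 63, 66 and 58 reads in the standard libraries and 152 and 215 in the AHARIBO libraries, a log2 fold change of 1.15 (SE 0.15, adjusted p = 5.02e-07 by edgeR's test). Rprl2 (85.6% identity) had 44, 37 and 34 reads against 103 and 132, a log2 fold change of 1.21 (0.17). These genes had the steepest dependence on duplicates in the family, with log2 fold changes of 3.33 and 3.58 when duplicates were kept. Rprl1 and Gm24943 reached 1 CPM in the AHARIBO libraries alone, so that both were included only through the group in which they were high, and their p-values are given as a description. Rprl1 (83.7% identity) was low, with 3, 4 and 6 reads against 20 and 30, a log2 fold change of 2.10 (0.44) that did not pass without AHARIBO replicate 2 (adjusted p = 0.0784 by edgeR's test) or by DESeq2 without its filter on low means (0.166), and shares 68.8% of its windows with a lincRNA record of the same name. Gm24943 (74.4% identity over 45.0% of its length) had 5, 0 and 2 reads against 14 and 13, and its adjusted p of 0.0496 by edgeR's test lay at the threshold. Its log2 fold change was 2.08, 3.14 without standard replicate 1 and 1.43 without standard replicate 2, and it did not pass without standard replicate 2 or 3 or without either AHARIBO library (0.0797 to 0.279).

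RNase MRP RNA was higher in the AHARIBO libraries, with the smallest difference among the called ribozyme transcripts when duplicates were removed. Rmrp had 241, 256 and 209 reads (27.0, 28.3 and 33.2 CPM) in the standard libraries and 462 and 624 reads (40.4 and 62.3 CPM) in the AHARIBO libraries. The groups did not overlap, with means of 29.5 ± 3.25 (SD, n = 3) and 51.4 ± 15.5 CPM (SD, n = 2), and the log2 fold change was 0.81 with a standard error of 0.11 (adjusted p = 8.77e-07 by edgeR's quasi-likelihood test). With duplicates kept it had 93.9, 119 and 96.1 CPM against 489 and 544 CPM, a log2 fold change of 2.32 (adjusted p = 9.93e-09 by the same edgeR test). Without AHARIBO replicate 2 the log2 fold change without duplicates was 0.47, and by DESeq2 the adjusted p was 0.0999 with its filter on low means and 0.297 without it. The lincRNA record of the same name had 253, 268 and 216 reads against 477 and 652, nearly the reads of Rmrp itself.

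Of the 8 Y RNA transcripts, 1 was higher without duplicates and 2 with them. Rny1 had 20.6, 21.7 and 21.1 CPM in the standard libraries and 22.1 and 26.0 CPM in the AHARIBO libraries, a log2 fold change of 0.18 (SE 0.10) that did not pass (adjusted p = 0.352 by edgeR's test). The value was 0.30 without AHARIBO replicate 1 and 0.07 without AHARIBO replicate 2, and neither passed. With duplicates kept it had 264, 282 and 266 CPM against 324 and 377 CPM, and the log2 fold change of 0.37 passed (adjusted p = 0.0227 by the same edgeR test). Rny3 had 103, 137 and 95 reads against 206 and 193, which are 11.5, 15.1 and 15.1 CPM against 18.0 and 19.3 CPM. With duplicates kept the log2 fold change of Rny3 was 0.79 (adjusted p = 0.00729 by edgeR's test). Rny3 was the Y RNA that also passed without duplicates, with a log2 fold change of 0.43 (SE 0.12, adjusted p = 0.0237 by edgeR's test). Without standard replicate 1, AHARIBO replicate 1 or AHARIBO replicate 2 its adjusted p was 0.252, 0.104 and 0.0938, respectively. By DESeq2 without its filter on low means it was 0.615, and with the filter none was given.

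None of the 6 Y RNA copies passed edgeR's test, with or without duplicates. Gm26168, which shares 38.6% of its windows with Rny1, had 6.72, 6.95 and 6.98 CPM against 7.52 and 8.29 CPM and a log2 fold change of 0.20. The others shared no window with any gene and had log2 fold changes from -0.40 to 1.34, with standard errors of up to 0.78 and means of 0.780 to 7.91 CPM in the AHARIBO libraries over all 6. The difference between the Y RNAs and the other families was not tested.

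Vault RNA and telomerase RNA did not pass without duplicates. Vaultrc5 had 16.5, 20.6 and 20.2 CPM in the standard libraries and 22.8 and 25.2 CPM in the AHARIBO libraries, a log2 fold change of 0.33 (SE 0.11, adjusted p = 0.0602 by edgeR's test). With duplicates kept it had 29.0, 43.9 and 34.4 CPM against 165 and 221 CPM, a log2 fold change of 2.43 (adjusted p = 1.63e-07 by the same edgeR test). Without duplicates it also passed with library sizes in place of TMM factors (adjusted p = 0.0375 by the same test) and without standard replicate 2 (0.0352). Terc had 4.26, 6.95 and 3.17 CPM against 7.35 and 5.89 CPM, and its groups overlapped. Its log2 fold change was 0.42 without duplicates and 0.32 with them, and neither passed (adjusted p = 0.228 and 0.480 by edgeR's test). Without standard replicate 2 the value of Terc was 0.81 and passed (adjusted p = 0.0183 by the same test), whereas it was 0.25 without standard replicate 3 and 0.24 without AHARIBO replicate 1, and neither passed.

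Among the 5 unclassified transcripts none passed without duplicates. Gm27406 lies within an exon of Pcbp2, with which it shares all its windows, and had 10.1, 7.51 and 12.1 CPM against 8.14 and 6.89 CPM (log2 fold change -0.35). Gm27913 shares all its windows with the lincRNA Pvt1 and had a log2 fold change of 0.05. Gm27286 is the reverse complement of part of the lincRNA 5430416N02Rik and had -0.61. It had 37, 24 and 29 reads against 19 and 33. A transcript of that lincRNA (ENSMUST00000180779.1) had 40, 25 and 30 reads against 27 and 45. The methods state that antisense reads were removed, and whether the same reads were counted on both strands was not tested. Gm22902, annotated as a ribozyme, lost 95.8% to 98.1% of its reads as duplicates and had 24, 15 and 20 reads against 26 and 32. Gm26102, within Timm44 on the other strand, had 6, 4 and 1 reads against 15 and 16 and a log2 fold change of 1.65 (adjusted p = 0.0592 by edgeR's test), and was the 1 unclassified transcript with an adjusted p under the threshold when duplicates were kept (log2 fold change 2.29). It was included only through the AHARIBO libraries, so that these values too are a description.

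**Figure D3:**
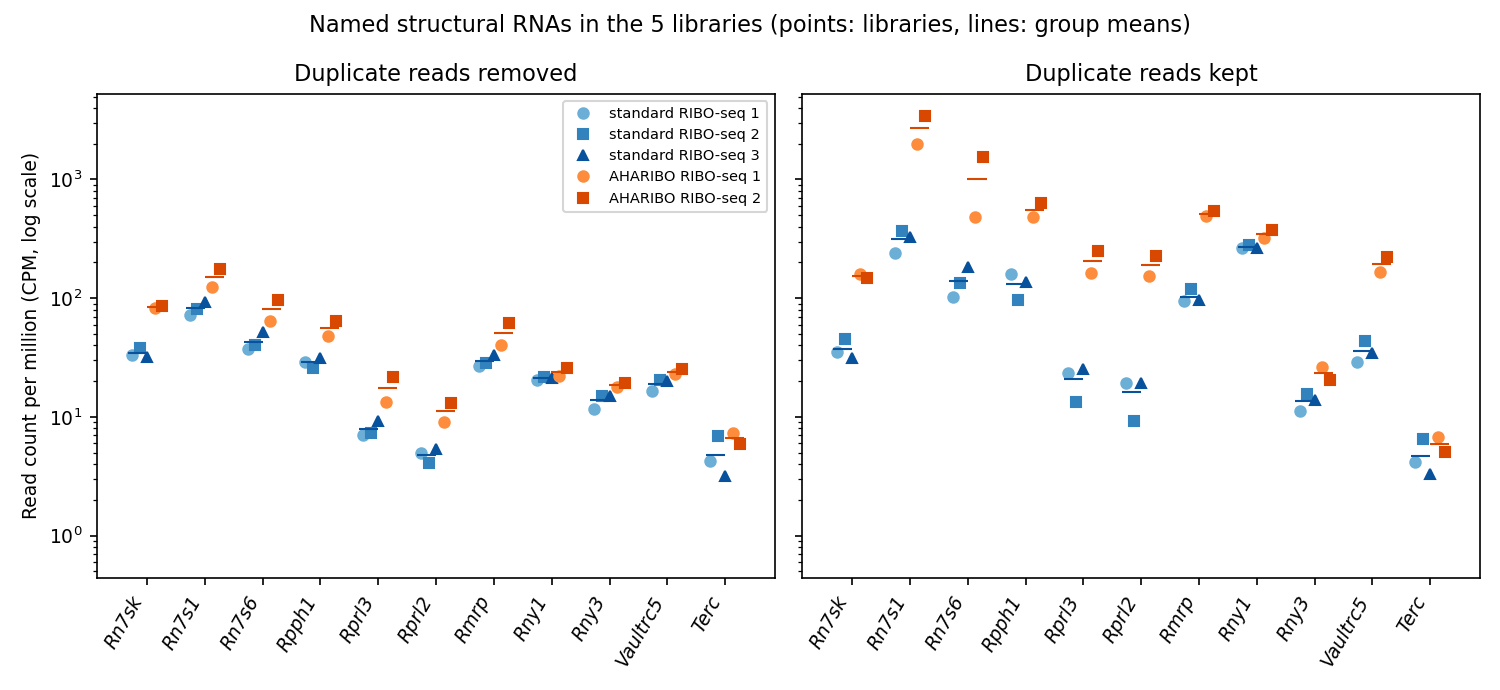
Levels of 11 named structural RNAs in each library in CPM on a log axis, with duplicates removed on the left and kept on the right. Symbols are libraries and short lines group means. Terc overlaps between the methods, while the other 10 lie higher in both AHARIBO libraries in both panels, by little for Rny1 and, with duplicates removed, for Rny3 and Vaultrc5.

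Per length, the order of the RNAs changed between the methods. Without duplicates, CPM per 1000 nt in the standard libraries was highest for Rn7s1 and Rn7s2 (273 each), followed by Rny1 (189), Rn7s6 (148), Rny3 (136), Vaultrc5 (134), Rmrp (109), Rn7sk (104) and Rpph1 (90.6). In AHARIBO RIBO-seq it was 504 and 503 for Rn7s1 and Rn7s2, 276 for Rn7s6, 253 for Rn7sk, 215 for Rny1, 190 for Rmrp, 189 for Gm26315, 183 each for Gm24447 and Rny3, 176 for Rpph1 and 168 for Vaultrc5. Rn7sk, below Rny1 and Rny3 in the standard libraries, was above both in the AHARIBO libraries without duplicates, but not above Rny1 with duplicates kept. Levels that lie close together in either order, such as those of Rmrp, Gm26315, Gm24447 and Rny3 in the AHARIBO libraries, differed by less than the spread between libraries of Rmrp.

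Duplicate removal acted unevenly on these RNAs. Of all counts, summed over transcripts, it took 43.3% to 43.8% in the standard libraries and 47.7% and 44.9% in the AHARIBO libraries. Of the 50 transcripts, 25, 25 and 27 lost a larger share than their own library in standard replicates 1, 2 and 3, and 39 and 37 did in the AHARIBO libraries. Over all transcripts tested this share was 6.26%, 6.19%, 6.19%, 6.76% and 6.22% in the same order. For 37 of the 50, against 12.3% of all transcripts tested, both AHARIBO libraries lost a larger share than all standard libraries with reads, among them 16 of the 18 7SK-like transcripts and 2 of the 8 Y RNAs. Most 7SK-like transcripts lost less than their library in standard RIBO-seq, where 2, 3 and 3 of the 18 lay above it, against 12 and 10 in AHARIBO RIBO-seq. Gm24447, for example, lost 25.0%, 27.1% and 19.8% against 63.9% and 61.5%, and Gm23875 lost no read in the standard libraries and 21.9% and 25.3% in the AHARIBO libraries. From Rn7s1 it took 83.1%, 87.8% and 84.5% in the standard libraries and 96.6% and 97.1% in the AHARIBO libraries. From Rn7sk it took 47.8%, 53.0% and 44.0% against 72.4% and 67.6%. Rn7sk was thus near the level of its libraries in the standard libraries and above it in the AHARIBO libraries. From Vaultrc5 the loss was 68.3%, 73.8% and 67.8% against 92.6% and 93.6%, and from Rmrp 83.9%, 86.8% and 81.0% against 95.6% and 93.6%. Rny1 lost 95.6% to 95.7% in the standard libraries and 96.3% and 96.1% in the AHARIBO libraries, nearly the same share in every library. Terc lost 34.4% to 47.4%, with both AHARIBO libraries below their own library's share.

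Duplicates are commonly defined as reads that map to the same place; the definition used is not given in the sources used here, and no molecular identifiers are mentioned that would tell copies of a fragment from separate fragments with the same ends. Whether the difference between the versions reflects fragments present in many copies or their amplification was not tested. Per nt of transcript and with duplicates removed, Rn7s1 held 1.95 to 2.44 reads per nt in the standard libraries and 4.77 and 5.91 in the AHARIBO libraries, and Rny1 1.19 to 1.76 against 2.26 and 2.32. With duplicates kept the order of this pair in the standard libraries was the other way, with 12.7, 20.0 and 12.6 reads per nt for Rn7s1 and 37.6, 40.8 and 27.2 for Rny1, while in the AHARIBO libraries Rn7s1 held 142 and 206 and Rny1 61.5 and 60.1. Rn7sk then held 1.71, 2.23 and 1.09 reads per nt in the standard libraries and 10.3 and 7.96 in the AHARIBO libraries, below Rny1 in every library. Without duplicates Rn7sk held 0.607 to 1.05 reads per nt against 2.83 and 2.58.

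**Figure D4:**
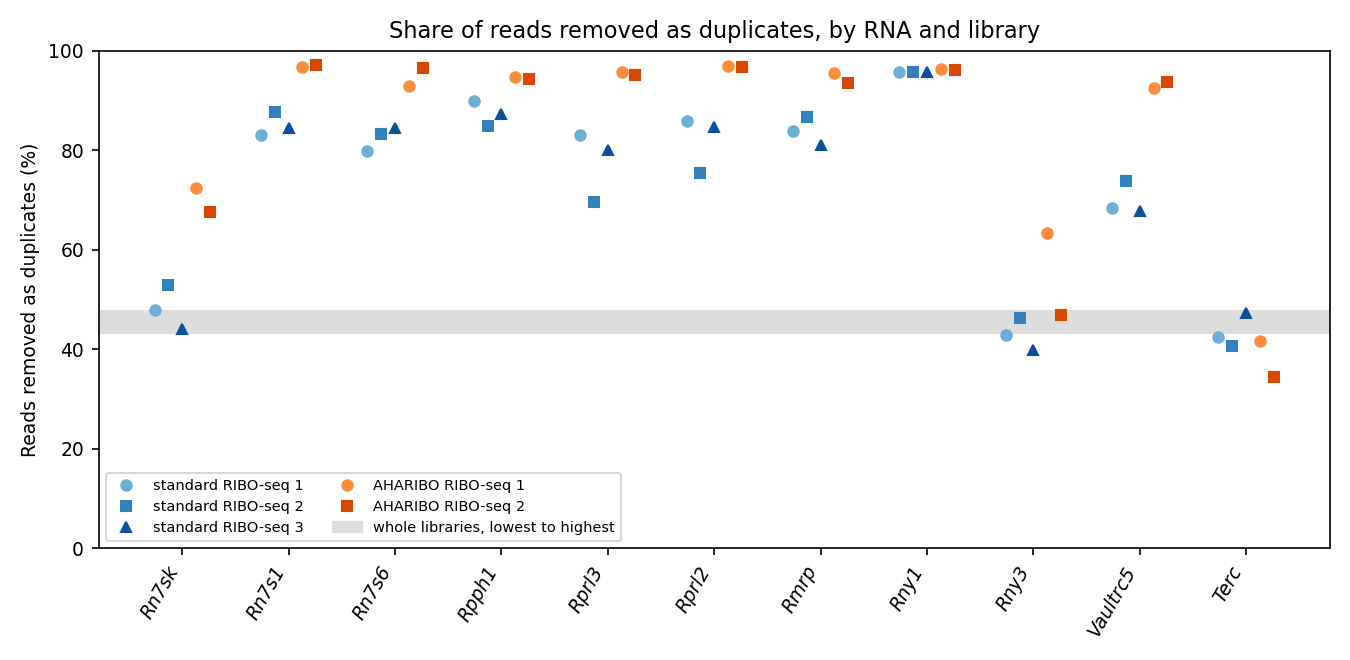
Percentage of the reads of each named RNA that duplicate removal took, by library, with the range of the whole libraries (43.3% to 47.7%) as a grey band. Rn7s1, Rpph1, Rmrp and Rny1 lie above 80% in every library, and Rn7sk and Vaultrc5 lie higher in both AHARIBO libraries than in the standard libraries.

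The mRNAs of the proteins that bind these RNAs mostly did not pass. Of 35 listed genes, 33 were found in the table under the listed symbol, and no most abundant transcript of the 33 passed edgeR's test without duplicates, with a median log2 fold change of 0.01 and a range from -0.26 to 0.30. Without adjustment 3 were higher and 4 lower at a p under 0.05, and no share over all transcripts was computed for this limit. DESeq2 called 0, and with duplicates kept 1 passed (Ssb). Srp54a, Srp54b and Srp54c had nearly the same CPM (40.0, 39.1 and 39.1 in standard replicate 1) and may not be separate measurements. Over all 67 coding transcripts of these genes, 1 was higher and 0 were lower, a share near the 2.27% of all transcripts. That transcript, ENSMUST00000132603.1 of Ssb (the La protein, which binds the 3′ ends of Y RNAs and other small RNAs), had 20.6, 17.8 and 18.4 CPM against 25.5 and 24.6 CPM and a log2 fold change of 0.40 (adjusted p = 0.0143 by edgeR's test).

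For the 7SK particle, 18 transcripts of 7 genes gave 0 calls. Hexim1, which inhibits P-TEFb when bound to 7SK, had 40.4 ± 0.546 (SD, n = 3) and 38.0 ± 0.0795 CPM (SD, n = 2), and Larp7, which binds the 3′ end of 7SK, had a log2 fold change of 0.12. Ccnt2, a cyclin of P-TEFb, came closest with 0.30 (adjusted p = 0.0558 by edgeR's test). For the signal recognition particle and its receptor, 23 transcripts of 10 genes gave 0 calls. Srp9 and Srp14, the pair that binds the Alu domain, had log2 fold changes of -0.12 and -0.26, and Srp54a, which binds signal peptides, had 0.07. For RNase P and RNase MRP, 17 transcripts of 11 genes gave 0 calls, with log2 fold changes from -0.24 (Rpp25) to 0.27 (Rpp14). Of the vault proteins, the major vault protein gene Mvp had -0.26 (adjusted p = 0.0920 by edgeR's test), and 0 of 4 transcripts passed.

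**Figure D5:**
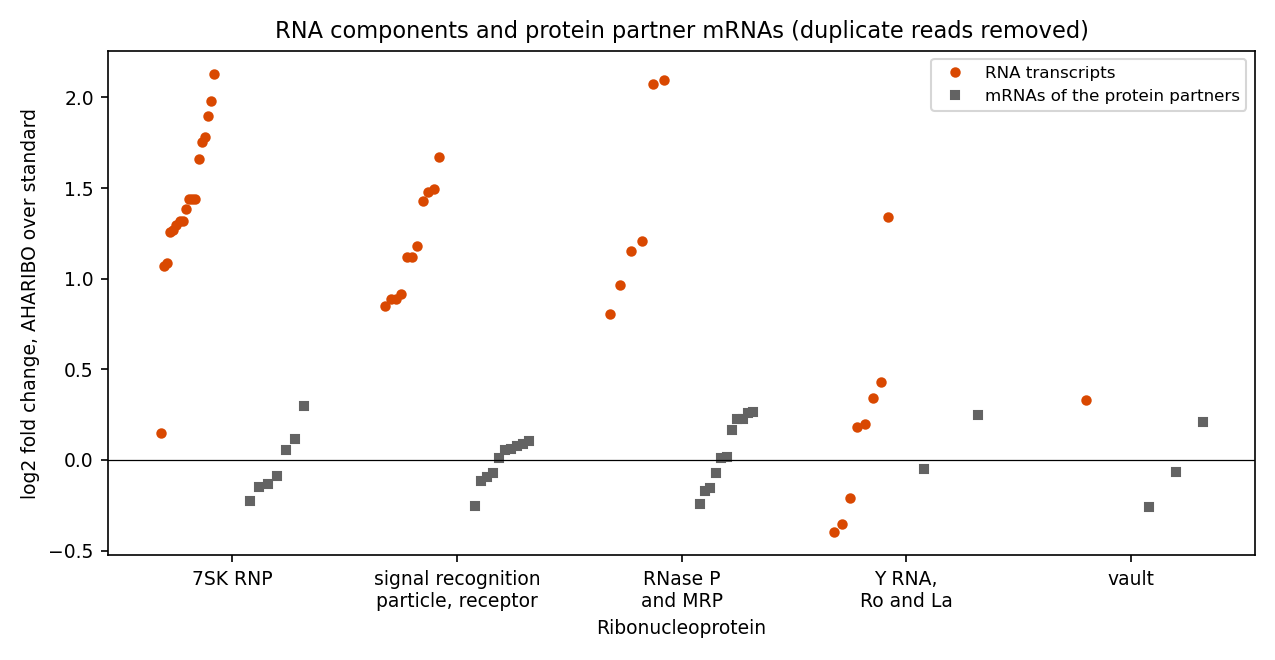
Log2 fold changes of AHARIBO over standard RIBO-seq without duplicates, for the RNA transcripts of each ribonucleoprotein (circles) and for the most abundant transcript of each listed protein partner (squares). The partner mRNAs lie between -0.26 and 0.30 in all 5 groups, the 7SL, RNase P and RNase MRP transcripts lie at or above 0.81, and the 7SK-like transcripts (from 0.15), the Y RNAs (-0.40 to 1.34) and vault RNA (0.33) reach into or near the range of the partners.

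Other short RNAs in the deposited counts had differences in the same direction. Of 168 snoRNA transcripts tested, 58 were higher and 0 lower (34.5%), with a median log2 fold change of 1.15, and of 12 scaRNA transcripts 6 were higher, with a median of 1.48. Of 31 transcripts of rRNA type, 12 were higher and the median was 2.19. Of 120 snRNA transcripts 18 were higher without duplicates (median 0.45) and 70 with duplicates kept (median 1.64). Of the 124 miRNA records, 18 were higher and 1 lower, with a median of -0.06, and 8 of the 18 were records nested in 7SL genes, whose reads are counted there as well. Among the 59942 transcripts of protein-coding genes, 1228 were higher and 1207 lower, and the median was 0.01. Whether the structural RNAs differed from snoRNAs or snRNAs was not tested.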

How the data were processed

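Per the methods, reads were trimmed with Trimmomatic 0.36, filtered against rRNA and tRNA and mapped with STAR to Gencode M17 transcripts, and antisense reads were dropped. The authors deposited unnormalized counts for each transcript, 1 set after duplicate removal and 1 set before it. The version without duplicates was used for the tests, as in the methods, and the other is given beside it. How reads that match several transcripts were counted is not given in the sources used here. Identical transcripts had nearly equal counts, so that each match appears to be counted on every transcript. The 50 transcripts and the gene lists were chosen with earlier results of these data known.

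Samples were grouped by the labels (3 standard, 2 AHARIBO). Gene types, sequences and coordinates came from Gencode M21 (GRCm38), in which 134952 of 135276 transcripts were found by identifier. CPM was computed with TMM factors over all transcripts in edgeR 4.0.16 (R 4.3.3), and the 66972 transcripts with at least 1 CPM in 1 library were tested by edgeR's quasi-likelihood test with Benjamini-Hochberg adjustment. Standard errors are approximate, from the fold change and the F statistic. Families were assigned by blastn 2.17.0 (at least 70% identity over 50% of either sequence), and shared sequence by windows of 30 nt on the same strand. Columns of per-sample values left unused numbered 0.

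Named with values were every transcript with a symbol other than a Gm number, every transcript with an adjusted p under 0.05, the 5 highest in CPM per 1000 nt, and those next to the limit of 1 CPM. Gm22902, Gm22198, Gm23037, Gm26168, the unclassified transcripts, the miRNA records, the Ccnb1ip1 transcripts and the single Ssb transcript were named after their values were seen. Same-numbered libraries did not deviate together (r = -0.04), so that the numbers were not taken as pairs. DESeq2 1.42.0, library sizes, no CPM limit, kept duplicates, a replicate block, 1 transcript per gene, other limits for inclusion and leaving out each library were tried as alternatives. DESeq2 without independent filtering and the share from 1 transcript per kind of RNA were added after seeing the data. The edgeR test was tested on simulated data for this comparison, with 200 changed among 66972 transcripts. It recovered 85% of changes of 2-fold and 99% of changes of 4-fold, with 6 unchanged transcripts called. The changed transcripts were drawn only from those above a minimum mean count, and the counts were simulated with edgeR's own dispersions. The recovery thus does not cover the transcripts with the fewest reads, and the simulation cannot decide between the calls of edgeR and DESeq2. The sequence of 7SL RNA is not reported here.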

Additional observations from a re-analysis of the deposited data

How the results depend on the processing

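The number of the 50 transcripts called, 33, lay between 28 and 35 when each library was left out in turn, and was 34 with library sizes or without the CPM limit, 38 with duplicates kept, 31 with a replicate block and 29 with 1 transcript per gene. Without the 12 transcripts that share 10% or more of their windows with other gene types it was 24 of 38. DESeq2 called 10, since its filter on low means gave 36 of the 50 no adjusted p, and 22 without that filter, when it called 223 transcripts in all (267 with it) against 3021 by edgeR. The share of the summed counts on the 50 transcripts was higher in AHARIBO RIBO-seq by 0.0565 percentage points, by 0.0436 to 0.0693 when each library was left out, by 0.796 with duplicates kept and by 0.0190 with 1 transcript for each kind of RNA. Requiring 1 CPM in every library left 33 transcripts, limits of 0.5 and 2 CPM gave 62 and 39, and leaving out each library gave 49 to 50. Of 374 values for 36 named transcripts under the alternatives, 336 kept their direction and side of the threshold, 33 no longer passed, 5 newly passed and 0 reversed. The replicate block lost 2 of these calls (Gm24139 and Gm23755). Without AHARIBO RIBO-seq replicate 2 the log2 fold changes of Rmrp, Rn7s6, Gm22567, Gm24514 and Gm24812 were smaller (0.47, 0.60, 0.96, 0.78 and 1.07) and still passed. By DESeq2 without its filter on low means, Gm22025, Gm26323, Gm24139, Gm23755, Rn7s1, Rn7s2, Rn7s6, Rmrp, Rprl1, Gm24943 and Rny3 no longer passed. The value of Terc, 0.42, was 0.25 with the replicate block. Vaultrc5 newly passed with library sizes and without standard RIBO-seq replicate 2. Counts of 3 are 0.262 to 0.476 CPM, which limits the lowest copies, and the single AHARIBO library left in such a fit is assumed to vary like the others.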
